A study of Mus musculus with 8 samples.

Results

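The nontargeting guides of a CROP-seq library were examined 1 by 1. They were 34 of the 280 guides of the library, the other 246 being directed against metabolic genes. A cell was counted for a nontargeting guide when exactly 1 guide was called in its barcode, that guide was a nontargeting one, and mitochondrial genes held at most 10% of its UMIs. This gave 2730 of 23337 cells, or 11.7%, and 44 further cells were left out by the mitochondrial limit.

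The cells were CD90.1+ OT-I T cells with Cas9, sorted 7 days after transfer from orthotopic KPC_OVA pancreatic tumours under anti-PD-1 antibody (aPD-1) or control IgG. Donors were OT-I:Rosa26-Cas9 mice bred from Rag2/OT-I and Rosa26-Cas9 animals, recipients were Rosa26-Cas9 mice, and all groups shared the Cas9 knock-in, the lentiviral vector and its CD90.1 cassette. The aPD-1 group had 3 libraries and the IgG group had 1, each loaded in a 10x channel of its own. The titles of aPD-1 replicates 1 and 2 share 1 name, whereas aPD-1 replicate 3 and IgG have a name each, and replicate 3 and IgG are set side by side as the other pair. This pairing was made with earlier results on the guides known. The study speaks of 2 experiments and of 2 batches that were integrated, and the sources used here do not say which library belongs to which. The study used young adult mice of either sex.

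A nontargeting guide carries a spacer chosen to match no site of the genome, so that Cas9 has no target to cut and the cell serves as the baseline for knockout cells. In CROP-seq the guide is read from a polyadenylated transcript of the integrated provirus, which is inherited by all progeny of the transduced cell. A guide therefore marks every clone founded by a cell that received it, and cells with 1 guide may belong to 1 clone or to many. T cell receptor genes can add to this, since a rearranged receptor is passed on within a clone. OT-I cells carry a transgenic receptor of Vα2 and Vβ5 chains that recognises an ovalbumin peptide on H2-Kb, and transcripts of other variable genes and of the γ and δ loci can be read beside it. Counts were made from the 3′ end of transcripts, which variable segments rarely reach.

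The spacers of the guides on which the results turn are printed with CG dinucleotides in capitals, since these were more frequent in nontargeting than in targeting spacers. The set comprises the 6 guides whose cell number differed between library pairs, NT20 with its γ chain transcripts and NT14 with its granzyme transcripts.
NT30: gctCGgaccttttagaCGtc
NT10: gcttctactCGcaaCGtatt
NT28: ggggatggccttaCGtCGCG
NT4: aCGtgtaaggCGaaCGcctt
NT12: aagcacaagaaCGgtcCGcc
NT25: attattcctcCGgatgaCGa
NT20: gCGgttacCGCGaaaaccat
NT14: gtcaagcCGaaCGctgcCGg

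All 34 nontargeting spacers held at least 1 CG dinucleotide, with a median of 2 and a maximum of 4, and 30 of them (88.2%) held 2 or more. Of 245 targeting spacers, 155 (63.3%) held at least 1, and 44 of these (18.0% of all) held 2 or more. GC content lay between 45 and 70% in the nontargeting set, with a median of 55%, and between 30 and 80% in the targeting set, with a median of 50%. No nontargeting spacer matched any of 141767 annotated transcripts of GENCODE M21 (GRCm38) on either strand with an NGG motif and at most 3 mismatches. The same search found an exact match in the own gene for 227 of 245 targeting spacers (92.7%). Introns and intergenic sequence were not searched.

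Cells of the 34 guides carried the identity genes of CD8+ T cells. Cd8a, the α chain of the CD8 coreceptor, had a UMI in 97.4 to 99.1% of cells per library, and Cd3e, a chain of the CD3 complex, in 97.3 to 99.7%. Cd4 had a UMI in at most 0.135% of cells per library. The 4 haemoglobin genes were at 0 in all libraries, and 15 cells held at least 10 UMIs of markers of other cell types. Depth differed between libraries, with a median of 17583, 16966 and 12302.5 UMIs per nontargeting cell in aPD-1 replicates 1, 2 and 3 and 6348 in IgG. The median guide UMI count was 4, 3, 3 and 3, and 377 of the 2730 cells were called from 1 guide UMI. No barcode was shared between nontargeting cells of different libraries.

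Cell numbers per guide were uneven, and 1 guide held a large share of the nontargeting cells of 2 libraries. Nontargeting cells numbered 323, 379 and 742 in aPD-1 replicates 1, 2 and 3 and 1286 in IgG. The median guide had 7.5, 8, 21 and 37 of them. NT30 had 63 cells in aPD-1 replicate 1, 105 in replicate 2, 10 in replicate 3 and 30 in IgG. It thus held 19.5% (exact Clopper-Pearson 95% interval 15.3 to 24.3) and 27.7% (23.3 to 32.5) of the nontargeting cells of replicates 1 and 2, against 1.35% (0.648 to 2.46) in replicate 3 and 2.33% (1.58 to 3.31) in IgG. The intervals of the first 2 libraries lay wholly above those of the others. Among targeting cells of replicates 1 and 2, a larger set spread over 246 guides, the most frequent guide held 2.83% and 2.995%. That guide had 63 and 67 cells, against 63 and 105 for NT30, so that the percentages of the 2 sets have unlike denominators. Intervals cover counting error only.

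Other guides were high in other libraries. NT20 had 3, 6, 64 and 29 cells in the same order, so that it was the most frequent nontargeting guide of replicate 3, with 8.63% of the cells. NT18 had 8, 6, 21 and 64 cells and was the most frequent in IgG, with 4.98%. NT25 had 0, 2, 25 and 31 cells, and NT1 had 0, 3, 9 and 49. The 0 counts allow a share of up to 0.929% in replicate 1. The lowest total was that of NT26, with 2, 3, 9 and 18 cells.

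The order of the guides was most alike in replicates 1 and 2. Over 34 guides, Spearman's rho of cell numbers was 0.62 between replicates 1 and 2 and 0.33 between replicate 3 and IgG, and it was 0.15 to 0.21 in the 4 comparisons across pairs. Without NT30 it was 0.58, 0.31 and 0.21 to 0.29. Over the targeting guides it was 0.72 between replicates 1 and 2, 0.54 between replicate 3 and IgG and 0.30 to 0.36 across pairs. Chi-square per degree of freedom over the 34 nontargeting guides was 1.501 between replicates 1 and 2, 3.26 between replicate 3 and IgG and 6.35 to 10.4 across pairs, and without NT30 it was 1.34, 3.28 and 3.19 to 3.42. These values are descriptions, since the guides of a library share its cell pool and depth. GC content and CG number followed cell number weakly, with rho between -0.02 and 0.28 over the 34 guides in the 4 libraries.

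Cell number was set side by side between library pairs, as a description, since the pairs were formed with the guides' numbers known. The values come from edgeR's quasi-likelihood test with Benjamini-Hochberg adjustment over 272 guides, of which 14.0% were called, 8.46% higher and 5.51% lower in replicates 1 and 2. Among the nontargeting guides 6 of 34 were called, or 17.6%, a share near that of all guides. NT30 was higher in replicates 1 and 2 by 4.14 on the log2 scale (SE 0.53). NT10 (1.74, SE 0.49), NT28 (1.51, SE 0.49), NT4 (1.39, SE 0.48) and NT12 (1.51, SE 0.52) were also higher there. NT25 was lower by -2.77 (SE 0.91). With cells of at least 5 guide UMIs alone, 1 nontargeting call remained, that of NT30 at 3.03. Over all guides tested in that fit 5 were called, 4 higher and 1 lower. Without TMM scaling 6 nontargeting guides were called, 3 in each direction, and NT4 and NT12 were not among them. Over all 272 guides 49 were then called, 20 higher and 29 lower. Higher calls thus outnumbered lower ones with TMM scaling, and lower calls outnumbered higher ones without it.

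Cell number was also compared by treatment. In the comparison of aPD-1 with IgG, 0 of 272 guides passed the same test (0%), and 10 had an unadjusted p under 0.05, 1 of them nontargeting (NT1, log2 fold -2.01, SE 0.95). The IgG group was 1 library, which was assumed to vary like the others, and for NT30 the difference was 3.30 with an SE of 2.71. Of the pair that holds IgG, replicate 3 was the only aPD-1 library.

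Cell states were described by 8 clusters of all cells with 1 guide. Cluster 6 was precursor exhausted-like, with Tcf7, Slamf6, Id3 and Ikzf2 among its 10 leading genes, and cluster 3 effector-like, with Ifng, Crtam, Ccl3, Ccl4 and Ccl1. Clusters 1 and 5 were proliferating G1/S-like and G2/M-like. Clusters 0, 2 and 7 remained unnamed. Cluster 4 held 3 effector memory markers among its 10 leading genes (Klf2, Gzma and Ly6c2), and it was called by its number because Gzmf, Gzmc and Fcer1g led it. Cluster 0 was led by Bnip3 and Prf1, and cluster 2 by histone genes. Cluster 7 was led by Gm42418 and Lars2, and its cells had 0.293 times the median UMI count of their own library.

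Most nontargeting cells lay in clusters 0 to 3, and their shares were near those of targeting cells in most clusters. The widest gap was in cluster 4 of aPD-1 replicate 2, with 4.49% (2.63 to 7.08) of nontargeting and 9.83% of targeting cells. In cluster 0 they were 26.6, 28.2 and 40.7% in aPD-1 replicates 1, 2 and 3 and 29.4% in IgG, where targeting cells were 31.4, 29.9, 36.9 and 27.4%. In the effector-like cluster 3 they were 20.7, 18.7, 10.9 and 10.7%, and in the precursor exhausted-like cluster 6 they were 3.72, 5.01, 1.75 and 5.29%. Cluster 3 was thus higher in replicates 1 and 2 than in the other pair, whereas replicate 3 and IgG differed by less than their intervals (8.76 to 13.4 and 9.02 to 12.5).

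Single guides ranged widely around these shares at the cell numbers available. In IgG, where each guide had at least 16 cells, the share in cluster 0 ran from 16.1 to 50.8% with a median of 28.9%, and that in cluster 3 from 5.08 to 20.7%. NT30 had 1 of 63, 1 of 105, 0 of 10 and 2 of 30 cells in cluster 6, against 4.23, 6.57, 1.78 and 5.25% of the cells of all other nontargeting guides. None of the 272 guide and cluster combinations (0%) passed edgeR's quasi-likelihood test with Benjamini-Hochberg adjustment, in which 16 had an unadjusted p under 0.05. The smallest p was that of NT18 in cluster 7, with 0 of 8, 1 of 6, 1 of 21 and 6 of 64 cells and a log2 fold of 1.76 (SE 0.51, adjusted p = 0.192). For guides with few or no cells in the sparse clusters 6 and 7 the SEs were very large. NT30 in cluster 6 had a log2 fold of -0.86 with an SE of 43.0. The test could thus hardly call a low share in these clusters, and it decides nothing there. In the other clusters, shares of these sizes were not distinguishable between guides at this depth.

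Gene expression was compared for each guide against the other 33, on sums of each guide's counts in a library, and the library entered the fit as a block. Of 189346 guide and gene pairs, 36 were called (0.0190%), 32 higher (0.0169%) and 4 lower (0.00211%) in the guide. They fell on 17 guides and 21 genes, and 4.65% of all pairs had an unadjusted p under 0.05. In 26 of the 36 pairs, 1 cell held more than 50% of the UMIs of the gene in that guide, and in 30 the libraries did not all have the same direction. Only 4 calls were free of both, all of them lower in NT30. The test compares a guide with the mean of the other guides on the log scale, which has no finite value where a guide holds no UMI of the gene. This was so for 96 of 5569 genes (1.72%), which held 30 of the 36 calls. With the other guides pooled in 1 coefficient 14 pairs were called (0.00739%), all of them among the 36.

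Klrk1 encodes NKG2D, an activating receptor of natural killer and CD8+ T cells. NT30 cells had 92.6, 115, 127 and 166 CPM of Klrk1 in aPD-1 replicates 1, 2 and 3 and IgG, where cells of the other guides had 261, 220, 199 and 236 CPM. NT30 was below each of the other guides with at least 5 cells in replicates 1 and 2 and IgG, and above 1 of 33 in replicate 3. A Klrk1 UMI was found in 50.8% and 53.3% of NT30 cells of replicates 1 and 2, against 76.2% and 76.6% of the others. The log2 fold was -1.02 (SE 0.19, edgeR adjusted p = 0.00317), and -1.02 (SE 0.18, adjusted p = 0.00252) against the pooled guides.

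Tm6sf1, a gene for a multipass membrane protein, had 9.04, 15.6, 21.2 and 49.0 CPM in NT30, against 39.8, 34.98, 53.8 and 67.0 CPM in the others. The log2 fold was -1.32 (SE 0.22, edgeR adjusted p = 0.00079). Cd47, whose product is a signal against phagocytosis, had 255, 298, 296 and 299 CPM in NT30, against 362, 366, 434 and 427 CPM, a log2 fold of -0.49 (SE 0.10, edgeR adjusted p = 0.0192). Filip1l had 2.26, 6.63, 15.9 and 4.90 CPM in NT30, against 19.3, 17.3, 24.6 and 37.6 CPM, a log2 fold of -1.74 (SE 0.34, edgeR adjusted p = 0.00783). All 4 genes were lower in NT30 in each library, which follows from the choice, since calls without 1 direction in all libraries were set aside. None of the 4 calls held without aPD-1 replicate 1 (adjusted p 0.412 to 0.663) or without replicate 2 (0.0532 to 0.132), although each fold kept its sign. Those of Filip1l (0.239) and Cd47 (0.289) did not hold without IgG, and that of Cd47 (0.463) did not hold without replicate 3. Against the pooled guides Cd47 had an adjusted p of 0.0524, and its call was also lost with no library block (0.0838) and with no filter on low counts (0.0954). With cells of at least 5 guide UMIs alone, Klrk1 (0.336), Tm6sf1 (0.163) and Cd47 (0.0867) were not called.

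The calls that rested on single cells were led by granzymes and cytokines. Csf2, which encodes the growth factor GM-CSF, was called in NT1, where 1 of 61 cells held 95.7% of its 94 UMIs. Granzymes are serine proteases of cytotoxic granules. NT14 was called for Gzmd, with 67.6% of 587 UMIs in 1 cell, for Gzmg, with 89.4% of 160 UMIs in 1 cell, and for Gzmf, with all 534 UMIs in 1 cell of aPD-1 replicate 2. NT17 was called for Gzmd, with all 486 UMIs in 1 cell of replicate 3. Gzmd, Gzme, Gzmf and Gzmg are near-identical neighbours, so that reads may be split among them. The call of Tff1, higher in NT30, was chosen for naming after its values were seen. Its level was 71.5, 38.9, 26.4 and 0 CPM, against 20.7, 13.1, 10.8 and 6.14 CPM in the others. The call was lost in 6 of 14 alternatives, in which the adjusted p reached 0.9999. Among these were the fit against the pooled guides (log2 fold 1.76, edgeR adjusted p = 0.112) and the fits without aPD-1 replicate 1 (adjusted p = 0.699) and without replicate 2 (adjusted p = 0.0795).

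Over the gene lists, 11 of 306 guide and gene pairs of the granzymes were called higher and 0 lower (3.59%, against 0.0190% of all pairs). Of 272 pairs of chemokines and cytokines 2 were called higher. Of 306 pairs of natural killer receptors 1 was called lower, that of Klrk1 in NT30. The lists for interferon response (102 pairs), hypoxia (238 pairs) and metallothioneins (102 pairs) held no call, with 5.88, 2.10 and 6.86% of pairs at an unadjusted p under 0.05. In NT14 and NT17 the granzyme UMIs lay in 1 to 4 cells for Gzmd, Gzme, Gzmf and Gzmg.

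The level of Bcl2a1b in NT30 differed between the library pairs. This gene encodes a copy of the survival protein A1 of the BCL2 family. In replicates 1 and 2, a Bcl2a1b UMI was found in 26 of 63 and 67 of 105 NT30 cells (41.3% and 63.8%), against 259 of 260 and 265 of 274 cells of the other nontargeting guides (99.6% and 96.7%). In replicate 3 and IgG it was found in 10 of 10 and 24 of 30 NT30 cells, against 92.6% and 83.1% of the others. Levels in NT30 were 198, 277, 455 and 602 CPM, against 713, 742, 516 and 458 CPM. Among guides with at least 5 cells, NT30 thus lay below all 24 others in replicate 1 and all 23 in replicate 2. It lay above 6 of 33 in replicate 3 and above all 33 in IgG. Median depth of NT30 cells was 18839 and 19201 UMIs in replicates 1 and 2, and that of the others 16890.5 and 16462.

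The difference of the NT30 effect between library pairs was tested over 115668 guide and gene pairs, of which 6 were called (0.00519%). The pairs were set with earlier results on NT30 known, so that the p-values of this difference are no independent evidence. For Bcl2a1b it was -1.77 on the log2 scale (SE 0.23, edgeR adjusted p = 2.68e-05), and -1.77 (SE 0.23, adjusted p = 3.74e-07) against the pooled guides. Within replicates 1 and 2 the log2 fold of NT30 was -1.63 (SE 0.17), and within replicate 3 and IgG it was 0.14 (SE 0.17). Bcl2a1d, a close copy, had 429, 385, 201 and 259 CPM in NT30 and 431, 446, 222 and 180 CPM in the others. Bcl2a1a, Bcl2a1b and Bcl2a1d are near-identical in sequence, and how reads were divided among them was not tested.

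The 5 other calls of this difference concerned Gzmc in NT14 and NT23, H2afv in NT23, Far1 in NT24 and Klra5 in NT14, at 5 to 9 cells per library in replicates 1 and 2. Far1 encodes a fatty acyl-CoA reductase. Its level in NT24 was 117 and 133 CPM in replicates 1 and 2 and 10.8 and 29.98 CPM in replicate 3 and IgG, against 50.05, 46.0, 43.2 and 41.7 CPM in the others. Of the 6 calls, 2 were also called against the pooled guides, with which 5 pairs passed (0.00432%). Taken within 1 library pair, 47 guide and gene pairs were called in replicates 1 and 2 (0.0406%) and 7 in replicate 3 and IgG (0.00605%), and no pair was called in both.

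Among T cell receptor genes, the constant genes of the α and β chains were detected in nearly all cells. Trac (chr14:54220521-54224206, GRCm38, + strand), the α constant gene, had a UMI in 2653 of the 2730 cells. Trbc1 (chr6:41538218-41539881, + strand) and Trbc2 (chr6:41546730-41548352, + strand), the β constant genes, had a UMI in 2546 and 2710 cells. Trbv12-1, a variable gene of the Vβ5 family, had a UMI in 679 cells, the most of any variable gene. The 6 α variable genes listed (Trav16, Trav17, Trav19, Trav21-dv12, Trav3-3 and Trav6-7-dv9) had a UMI in 20 to 61 cells each. Most of their highest shares among guides with at least 5 cells rested on 1 to 3 cells. Examples are Trav21-dv12 in 3 of 11 cells of NT6 in aPD-1 replicate 1 and Trav6-7-dv9 in 2 of 7 of NT12. An exception was Trav17 in IgG, found in 10% of the 40 cells of NT23. Trdc (chr14:54142851-54148868, + strand), the δ constant gene, lies inside the α locus and had a UMI in 982 cells. Tcrg-C2 (chr13:19304649-19307551, - strand) and Trgv2 (chr13:19336573-19337167, - strand) of the γ locus had a UMI in 168 and 133 cells. Of these, Trac, Trbc1, Trbc2, Trbv12-1, Trdc and Tcrg-C2 passed the filter on low counts, and none was called in any of the 34 guides in the fit over all genes, in which each had at least 1 guide with an unadjusted p under 0.05.

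Trdc was frequent in NT30 in aPD-1 replicates 1 and 2, and in some other guides. A Trdc UMI was found in 54 of 63 NT30 cells of replicate 1 (85.7%, 95% interval 74.6 to 93.3) and in 82 of 105 of replicate 2 (78.1%, 69.0 to 85.6). It was found in 3 of 10 of replicate 3 and 10 of 30 of IgG. Cells of the other nontargeting guides had a UMI in 45.4, 49.3, 34.97 and 25.8%. Of the other guides with at least 5 cells, NT24 (6 of 6), NT15 (7 of 8) and NT6 (13 of 15) had higher shares than NT30 in replicate 2. NT6 had 9 of 11 in replicate 1. In replicate 3 the highest share was that of NT16 (15 of 22) and in IgG that of NT27 (11 of 22). At 2000 UMIs per cell the shares in replicates 1 and 2 were 34.9 and 30.5% for NT30, against 19.6 and 20.7% of all nontargeting cells, NT30 included. At least 3 Trdc UMIs were held by 41 of 63 and 67 of 105 NT30 cells, against 22.3 and 27.7% of the others. The levels were 248, 231, 15.9 and 83.2 CPM in NT30 and 112, 126, 118 and 93.9 CPM in the others. The difference between library pairs was 2.34 on the log2 scale (SE 0.72), which did not pass edgeR's Benjamini-Hochberg adjustment over all pairs (adjusted p = 1).

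Trbc1 had its lower values in NT30 where Trdc had its higher ones, and neither difference passed the test. The values of replicate 3 rest on 10 NT30 cells. NT30 had 443 and 487 CPM of Trbc1 in replicates 1 and 2, against 862 and 809 CPM in the others, and 1613 and 1028 CPM in replicate 3 and IgG, against 774 and 870 CPM. The difference between library pairs was -1.62 (SE 0.33, edgeR adjusted p = 0.117). Trbc2 had 2611, 3036, 1539 and 2330 CPM in NT30, against 2679, 2728, 2130 and 2339 CPM. Its difference between library pairs was 0.20 (SE 0.22).

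Trdc was found in NT30 cells both with and without Bcl2a1b. In replicates 1 and 2, cells without Bcl2a1b had higher levels of Trdc and lower levels of Klrk1 and Trbc1. Of the NT30 cells without a Bcl2a1b UMI, 27 of 37 in replicate 1 and 28 of 38 in replicate 2 had at least 3 Trdc UMIs. Of those with a Bcl2a1b UMI, 14 of 26 and 39 of 67 had them. Trdc was at 307 and 277 CPM without and at 175 and 208 CPM with a Bcl2a1b UMI. The cells without Bcl2a1b had a median of 18086 and 19002.5 UMIs, and Bcl2a1d at 383 and 377 CPM. Klrk1 was at 63.1 and 46.4 CPM in the cells without a Bcl2a1b UMI and at 128 and 149 CPM in those with one. Trbc1 was at 320 and 298 CPM without and at 592 and 583 CPM with a Bcl2a1b UMI. Both kinds of NT30 cell thus lay below the pooled cells of the other guides in Klrk1 and Trbc1 in these libraries. These levels are sums over cells split by a measured gene, and they were not tested. Whether NT30 cells of replicates 1 and 2 come from 1 clone or several was not tested, since the files hold no receptor sequences and no integration sites.

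Receptor transcripts of the γ and δ loci were also frequent in some other guides. NT20 had a Tcrg-C2 UMI in 24 of 64 cells of replicate 3 (37.5%, 25.7 to 50.5), against 9.14% of the others. It had a Trgv2 UMI in 18 of 64 (28.1%, 17.6 to 40.8), against 7.96%. In IgG NT20 had a UMI of each gene in 4 of 29 cells, against 4.93 and 3.58% of the others, and in replicates 1 and 2 in 0 of 3 and 0 of 6. At 2000 UMIs per cell the shares in replicate 3 were 10.9% and 3.13%, against 3.15% and 2.60% of all nontargeting cells, so that little of the difference in Trgv2 was seen at equal depth. Tcrg-C2 was found in 4 of 10 NT30 cells of replicate 3 as well (40%, 12.2 to 73.8). The log2 fold of Tcrg-C2 in NT20 was 2.02 (SE 0.51), which did not pass edgeR's Benjamini-Hochberg adjustment (adjusted p = 0.378). Trdv1, a δ variable gene, had a UMI in 7 of 27 cells of NT21 in replicate 3, against 3.22% of the others, and in 0 of 35 in IgG. Such guides were picked out among 34 after their values were seen.

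Sex-linked genes were read as a further mark of the donor. Xist, transcribed from the inactive X chromosome of female cells, had a UMI in 98.5, 97.6, 92.2 and 91.2% of nontargeting cells. The Y-linked genes Ddx3y, Eif2s3y, Uty and Kdm5d had 7 UMIs in 7 cells in all, and no cell held 2. At 2000 UMIs per cell Xist was found in 76.3, 63.7, 50.6 and 64.2%. Guides with at least 5 cells ranged from 76.2 to 100% in the unthinned shares, and cells without an Xist UMI had lower depth, with a median of 4529 UMIs in IgG against 6591 in those with one.

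Barcodes with 2 called guides gave a further view of clones, since a founder cell with 2 proviruses passes both on. Of 3504 such barcodes 785 held a nontargeting guide, in 691 different pairs, of which 624 were seen once. A pair was seen at least 3 times in 14 cases, 9 of which lay within 1 library pair. NT13 with Uxs1 guide 1 was found in 9 barcodes of IgG, where the frequencies of the guides alone give 0.0991. Dpm2 guide 2 with NT30 was found in 5 barcodes of IgG, against 0.0109, and NT3 with NT20 in 4 of IgG, against 0.0343. Whether such barcodes are progeny of 1 founder or of 2 cells in 1 droplet was not tested.

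Treatment was also compared within the nontargeting cells, on 1 sum per library. None of 10971 genes passed edgeR's quasi-likelihood test with Benjamini-Hochberg adjustment (0%), 308 genes were under an unadjusted p of 0.05, and 1 gene, Ccl3, was called by DESeq2. Tnfsf8, which encodes CD30 ligand, had 4.87, 2.80 and 3.44 CPM with aPD-1 and 16.3 CPM with IgG. Id3, a regulator of memory and precursor T cells, had 1.46, 2.24 and 3.15 CPM against 14.1 CPM. The chemokine gene Ccl3 had 1644, 1971 and 1403 CPM against 706 CPM, a log2 fold of 1.26 (SE 0.23, edgeR adjusted p = 0.999). Samd3 (-1.52, SE 0.26) and Ms4a4c (-1.35, SE 0.24) completed the 5 genes with the smallest p. These genes were chosen for their small p against 1 IgG library, so that the side on which the aPD-1 libraries lie follows from the choice. Without aPD-1 replicate 3, 1329 genes were called, but treatment and library pair then cannot be told apart.

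Among the state genes, Tcf7, a transcription factor of precursor cells, had 11.9, 7.14 and 8.41 CPM with aPD-1 and 24.9 CPM with IgG. Pdcd1, which encodes PD-1, had 264, 275 and 329 CPM against 272 CPM, and Ifng had 525, 502 and 502.5 CPM against 467 CPM. Gzmc had 32.2, 51.5 and 112 CPM against 157 CPM, with 59.1 and 50.8% of its UMIs in 1 cell in replicates 1 and 2.

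Nontargeting cells were last compared with targeting cells of the same libraries. Of 12406 genes 28 were called (0.226%) by edgeR's quasi-likelihood test with the library as a block, 13 higher and 15 lower in nontargeting cells. Gzme was higher, with 29.1, 35.4, 36.1 and 36.9 CPM in aPD-1 replicates 1, 2 and 3 and IgG, against 7.33, 10.5, 23.1 and 14.5 CPM (log2 fold 1.29, SE 0.12, adjusted p = 3.82e-06). NT14 held 31.2% of its nontargeting UMIs with 2.71% of the cells, and 1 cell held 15.9% of them. Within the libraries 1 cell held 59.2, 72.3, 44.7 and 37.3% of the Gzme UMIs. Gzmd was higher by 0.63, with 31.4% of its UMIs in NT14 and 26.0% in 1 cell. Within the libraries 1 cell held 59.9, 78.3, 66.1 and 27.0% of the Gzmd UMIs. Klra5 (0.26), Gzma (0.23) and Gm36723 (0.21) were higher by less. The call of Gzmd was lost without replicate 2 (adjusted p = 0.299), and those of Klra5 (0.258), Gzma (0.0774) and Gm36723 (0.167) were lost without replicate 3, while Gzme remained past the threshold without any 1 library.

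Bcl2a1b was lower in nontargeting cells, at 602, 605, 515 and 461 CPM against 695, 694, 528 and 486 CPM (log2 fold -0.13, SE 0.02, edgeR adjusted p = 0.0223), and the nontargeting sum holds the NT30 cells. The nontargeting guides other than NT30 had 713, 742, 516 and 458 CPM. They thus lay above the targeting cells in replicates 1 and 2 and below them in replicate 3 and IgG. Without replicate 2 the adjusted p of Bcl2a1b, with NT30 in the sum, was 0.620. Klf2, a transcription factor of recirculating T cells (-0.34, SE 0.07), and Emb (-0.26, SE 0.04) were also lower. Klf2 was lower in the aPD-1 libraries, at 42.6, 38.8 and 17.7 CPM against 55.7, 56.4 and 24.1 CPM. In IgG it was higher, at 19.3 CPM against 17.4 CPM. The call of Klf2 was lost without any 1 of the aPD-1 libraries (edgeR adjusted p 0.0657 to 0.882). The immunoglobulin genes Igkc (-3.61, SE 0.42) and Igha (-2.26, SE 0.31) had 143 and 62.6 CPM in targeting cells of replicate 3 and at most 5.31 and 7.29 CPM in those of the other libraries. Without replicate 3 the log2 fold was 0.10 for Igkc (adjusted p = 0.994) and -0.16 for Igha (adjusted p = 0.984). Without cells that hold at least 10 UMIs of other cell types' markers, it was -0.12 for Igkc (adjusted p = 0.978) and -0.24 for Igha (adjusted p = 0.835). Of the gene lists, 3 of 9 granzymes and 1 of 15 natural killer receptors were called higher and none lower, where 0.105% of all genes were called higher and 0.121% lower. The granzymes called were Gzme and Gzmd, with the single cells named above, and Gzma. The median log2 fold was 0.11 for granzymes and 0.00 over all genes.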

How the data were processed

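Per the labels and the study's methods, the authors mapped reads to mm10 with Cell Ranger 3.1.0, which also called guides with thresholds it set by itself, and R 3.6.3 and Seurat are among the tools they name. The values deposited are whole, unnormalized UMI counts in 1 matrix per library, and the deposited guide calls give the guides of each barcode with their UMI counts. Gene totals were 147911528, 148163269 and 155974184 UMIs in aPD-1 replicates 1, 2 and 3 and 142945121 in IgG. Groups came from the treatment label, and the library is the unit of replication. The study used several mice per group in 2 experiments, and the sources used here do not say which animals entered which library. In comparisons between libraries, p-values thus measure the spread between libraries, which may be technical. In fits with library terms, they measure the spread of the sums that the fitted terms leave.

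Barcodes with exactly 1 guide were kept. Those with more were left out, which removes many doublets, and no doublet caller was run. CPM is a sum's UMIs of a gene divided by its UMIs of all genes and scaled in the usual way. Counts were summed per guide and library from at least 5 cells and tested with edgeR 4.0.16 (filterByExpr, TMM, quasi-likelihood, adjusted p under 0.05 over all guide and gene pairs). Alternatives used DESeq2 1.42.0, limma 3.58.1, RLE scaling, no filter on low counts beyond a total of 10, sums of at least 10 cells, at least 5 guide UMIs, UMI counts within 3 median absolute deviations and no library block. Clusters came from Seurat 5.3.0 (2000 genes, 15 components, resolution 0.3), after the study's steps but integrated per library, and without targeted, receptor and sex-linked genes. Their names come from rebuilt clusters and may differ from the study's. Thinning drew 2000 UMIs per cell and left out shallower cells. A count of 0 allows 3 counts of the total. Other tools were R 4.3.3, Python 3.11.15, numpy 2.4.6, scipy 1.17.1 and pandas 2.3.3. Each fit was tested on simulated counts. Coordinates are those of GENCODE M21 (GRCm38) and are 1-based.

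Named calls are those with the 25 smallest p in which no cell holds more than 50% of the UMIs and all libraries have 1 direction, with 5 of the others. In the comparisons of summed classes they are the 5 largest rises and falls above a mean log2 CPM of 4, or the 5 smallest p. Receptor variable genes needed a UMI in 20 cells. The guides, gene lists and tests were chosen with earlier results of these data known.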

Additional observations from a re-analysis of the deposited data

Results flagged for a closer look

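A difference between library pairs was called by edgeR's test of the difference itself for 5 genes in 4 nontargeting guides, in 6 guide and gene pairs. The library pairs were set with earlier results known, so that these calls are no independent evidence. Of the 6 calls, 2 were also called against the pooled guides. Bcl2a1b in NT30 differed by -1.77 on the log2 scale, at 198 and 277 CPM in aPD-1 replicates 1 and 2 and 455 and 602 CPM in replicate 3 and IgG. Gzmc differed by 7.16 in NT14 and by 7.70 in NT23, where 1 cell held 51.4% and 92.0% of the UMIs. In NT14 1 cell held 117 of 128 Gzmc UMIs of replicate 1 and another all 187 of replicate 2. In NT23 replicate 1 had none and 1 cell held all 150 of replicate 2. H2afv, a histone variant gene, differed by 1.67 in NT23, at 414 and 712 CPM in replicates 1 and 2 (5 and 9 cells, with 25 of 44 and 30 of 117 UMIs in 1 cell) and 191 and 243 CPM in replicate 3 and IgG. Far1 differed by 2.53 in NT24, and Klra5, one of the near-identical Ly49 receptor genes, by 4.27 in NT14, where 2 of 9 and 2 of 5 cells held its UMIs in replicates 1 and 2.

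Barcodes with 2 guides, which no comparison used, held some pairs more often than the single guides' frequencies give. NT13 with Uxs1 guide 1 was found in 9 barcodes, all in IgG. B3gnt2 guide 2 with NT4 was found in 5, of which 4 in aPD-1 replicate 3 and 1 in replicate 1, and Dpm2 guide 2 with NT30 in 5, all in IgG. Man1a2 guide 2 with NT12 was found in 4 barcodes of replicate 3, NT23 with NT28 in 4, of which 3 in IgG, and NT3 with NT20 in 4 of IgG.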

How the results depend on the processing

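Against 36 guide and gene calls, there were 7 with DESeq2 (6 of them among the 36), 10 with at least 5 guide UMIs (2 among the 36), 14 with the other guides pooled (all among the 36, added after the data were seen), 205 with no filter on low counts (35 among the 36) and 26 to 33 when 1 library was left out (16 to 25 among the 36). Against 6 differences between library pairs there were 2 with sums of at least 10 cells and 3 without cells with other cell types' markers. Of cell number between pairs, 6 nontargeting calls stood against 1 with at least 5 guide UMIs, and 38 calls over all guides stood against 5. Without TMM scaling there were 6 nontargeting calls and 49 over all guides. Cell number by treatment and cluster shares gave 0 calls under each alternative run (leave-one-out 0 to 0). The treatment comparison went from 0 to 1 gene with DESeq2 and 0 to 1329 genes when 1 library was left out, the latter without aPD-1 replicate 3 (647 higher, 682 lower). Nontargeting against targeting cells went from 28 to 7 genes with DESeq2, 105 with no filter, 0 with no library block and 12 to 40 when 1 library was left out (12 without aPD-1 replicate 2, 19 without replicate 3). The log2 fold of Igkc ran from -4.36 to 0.10 when 1 library was left out and reversed (0.10) without aPD-1 replicate 3. Xist was found in 61.9% of cells after thinning to 2000 UMIs and in 83.2% with at least 2 UMIs, and Y-linked genes in 0.0373% and 0%. Apart from the construction of each alternative, the cause was not tested. Of the 175 comparisons of single genes and guides with an alternative, 114 kept direction and side of the threshold, 60 kept direction only and 1 reversed. No paired analysis was possible because IgG has 1 library, so the groups share fewer than 2 replicate numbers.

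Depth limits shares in IgG, and guides with under 10 cells in a library give wide intervals.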
